A study of Homo sapiens with 36 samples.

Results

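The miRNAs that came down with wild-type AGO2 (WT-AGO2) were compared with those of the cell lysate. HEK293T cells, an established human embryonic kidney line that is easily transfected, were co-transfected with a vector for Flag/HA-tagged AGO2 and a GFP vector. A portion of the cleared lysate was kept as input, and the rest was incubated with beads that carry an antibody against the HA tag (IP). The libraries described are the 3 IP and the 3 input libraries of WT-AGO2, 6 of the 36 in the series, chosen by their labels and matched by replicate number, on the assumption that equal numbers mark 1 lysate. The other libraries are IP and input of AGO2 with the changes F182del, N359H, G604R or D619N, or of the empty vector, again with 3 replicates each, and are used here for comparison. The tagged protein was made from a plasmid in cells that also hold their own untagged AGO proteins, so the input can contain miRNAs on AGO proteins that the antibody does not bind. That the replicate numbers are separate cultures is not stated in the labels, and p-values then measure the spread between these libraries.

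AGO2 is the protein at the core of the RNA-induced silencing complex. A miRNA hairpin is cut into a duplex with a 5p and a 3p arm, the duplex is loaded into an Argonaute protein, and 1 strand (the guide) is kept while the other (the passenger) is usually discarded. The guide pairs with target mRNAs through its seed, bases 2 to 8 from its 5′ end. The lysate holds miRNAs bound to any Argonaute protein, duplexes not yet unwound and any miRNA that is free, whereas the IP holds what is attached to the tagged AGO2.

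The deposited table lists 135 mature miRNAs under MirGeneDB names, in which P numbers mark paralogues of a family and an asterisk marks the passenger strand. The values are RPM of all reads of a library, and the reads behind each value were recovered, since all values are whole multiples of the RPM of 1 read. The inputs held 1188482 to 1861318 reads, of which 2746 to 9391 were mature miRNAs. The IP libraries held 102967 to 279899 reads, of which 6105 to 30793 were mature miRNAs. Each library was rescaled so that its mature miRNA reads alone are the base, a unit written mRPM below, so a value is a share of the miRNAs in that library, and 1 read was worth 32.5 to 364 mRPM. A share can fall because other miRNAs rose, and it says nothing of the amount of RNA. Ligation and amplification favour some sequences, so the order of different miRNAs within a library carries that preference, which was not measured here. Of the 135 names, 22 form 11 sets with identical values, and further names differ by a few reads, so that 119 were distinct. Over the 6 libraries, 1 read lay behind 17 of 810 values, 2 behind 58 and 3 behind 54, so single reads were rarely listed and a value of 0 may hide 1.

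The mature sequences of the miRNAs that the comparison turns on are given from RefSeq, where a name could be matched, with the seed in capitals. 51 of the 135 names matched 39 RefSeq sequences. The pair let-7a and let-7f is shown because its members share a seed and had different IP over input. They differ by G12A, counted from the 5′ end, with let-7a as the reference.
hsa-let-7a-5p: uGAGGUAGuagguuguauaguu
hsa-let-7f-5p: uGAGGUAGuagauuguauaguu
The next pair was called higher in IP than in input.
hsa-miR-423-5p: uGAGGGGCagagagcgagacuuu
hsa-miR-577: uAGAUAAAauauugguaccug
These were called lower in IP than in input, besides let-7a.
hsa-miR-218-5p: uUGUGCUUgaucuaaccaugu
hsa-miR-340-5p: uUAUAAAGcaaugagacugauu
hsa-miR-1307-5p: uCGACCGGaccucgaccggcu
The last is shown as an abundant miRNA with a larger share in IP.
hsa-miR-92a-3p: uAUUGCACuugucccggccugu
On GRCh38, let-7a-5p has 3 loci, at chr9:94175962-94175983 on the plus strand and chr11:122146568-122146589 on the minus strand in introns of the non-coding genes AL158152.2 and MIR100HG, and at chr22:46112752-46112773 on the plus strand in an exon of the non-coding gene MIRLET7BHG. Those of let-7f-5p are at chr9:94176353-94176374 on the plus strand, in an intron of AL158152.2, and at chrX:53557246-53557267 on the minus strand, in a HUWE1 intron. miR-577 lies at chr4:114656774-114656794 on the plus strand in an intron of UGT8, and miR-423-5p at chr17:30117095-30117117 on the plus strand in an exon of NSRP1. The loci of miR-218-5p are in introns of the axon guidance genes SLIT2, at chr4:20528299-20528319 on the plus strand, and SLIT3, at chr5:168768211-168768231 on the minus strand. miR-340-5p lies at chr5:180015361-180015382 on the minus strand, in a RNF130 intron, and miR-1307-5p at chr10:103394341-103394361 on the minus strand in an exon of ATP5MD. miR-92a-3p lies at chr13:91351361-91351382 on the plus strand in an exon of MIR17HG, the host of the oncogenic miR-17 cluster, and at chrX:134169544-134169565 on the minus strand in an exon of AC002407.1. Of the matched miRNAs that were called, 6 of 6 distinct sequences begin with U, against 22 of the 31 that were tested. Their median GC content was 42.5% for the 2 called higher and 37.2% for the 4 called lower, against 47.8% for all 31, with ranges of 28.6% to 56.5% and 27.3% to 71.4%.

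Mature miRNAs made up 11.0%, 6.24% and 2.23% of all reads in the IP libraries and 0.571%, 0.237% and 0.231% in the inputs, or 19.3, 26.4 and 9.65 times as much. In RPM of all reads, the 76 miRNAs that were above 0 in all 6 libraries were each higher in IP in all 3 pairs, by 2.59 times for Hsa-Mir-17-P4a_5p at the low end and 71.0 times for Hsa-Mir-320-P1_3p at the high end (median 17.1). "Higher" and "lower" are used below for the share among miRNAs. No miRNA with a read in the inputs was at 0 in all IP libraries, 7 were found in IP alone, where the miRNA reads were more numerous, and 4 were at 0 in all 6 libraries. None of the 14 marker families of liver, muscle, blood, neurons, smooth muscle and fibroblasts that were looked for is among the 135 names.

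Of the 95 miRNAs with a mean of at least 500 mRPM, 22 were called (23.2% of those tested). Calls needed an adjusted p under 0.05 from limma, with the replicate number as a block, and a log2 fold change beyond 1 in either direction. Higher in IP were 7 (7.37%), and lower were 15 (15.8%), or 13 when names with identical values are counted once. In these 13, let-7a-5p still counts more than once, under names that differ by a few reads. Of the higher, Hsa-Mir-130-P3b_5p* and Hsa-Mir-130-P4a_5p reached the mean of 500 mRPM through IP, with input means of 0 and 293. Of the lower, Hsa-Mir-15-P1a_5p and miR-218-5p reached it through the inputs, with IP means of 499.7 and 432. The counts depend in part on these. An adjusted p below 0.05 was reached by 29 miRNAs and an unadjusted p below 0.05 by 41. The median log2 fold change of the 95 was -0.06. With median-of-ratios scaling the median of all miRNAs was 0.17 and 7 higher and 8 lower were called, so that 46.7% of calls were higher instead of 31.8%. Among the called miRNAs, IP and input libraries overlapped for Hsa-Mir-1307_5p and Hsa-Mir-148-P1_5p*. The latter alone did not move the same way in all 3 pairs. The calls were selected from these same libraries, so their separation is a description and no support. The log2 ratios of the replicates correlated across the 95 miRNAs with Pearson's r of 0.67, 0.62 and 0.48, as a description, since miRNAs are not independent replicates. limma pooled the variance of the miRNAs fully along its trend with abundance, so that each p rests on the common spread rather than on the spread of that miRNA in 3 pairs. Without any pooling, which leaves 2 residual degrees of freedom, 1 miRNA was called, Hsa-Mir-577_5p, and 24 had an unadjusted p below 0.05. Without the replicate block 6 higher and 10 lower were called, all of them among the 22, and the calls of Hsa-Mir-15-P1a_5p, miR-218-5p, Hsa-Mir-1307_5p, Hsa-Mir-340_5p and Hsa-Mir-148-P1_5p* were lost. Without limma's trend 12 were called, and with no filter on low values 10. Without replicate 1, which has the most miRNA reads, 7 were called, all of them among the 22.

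**Figure D1:**
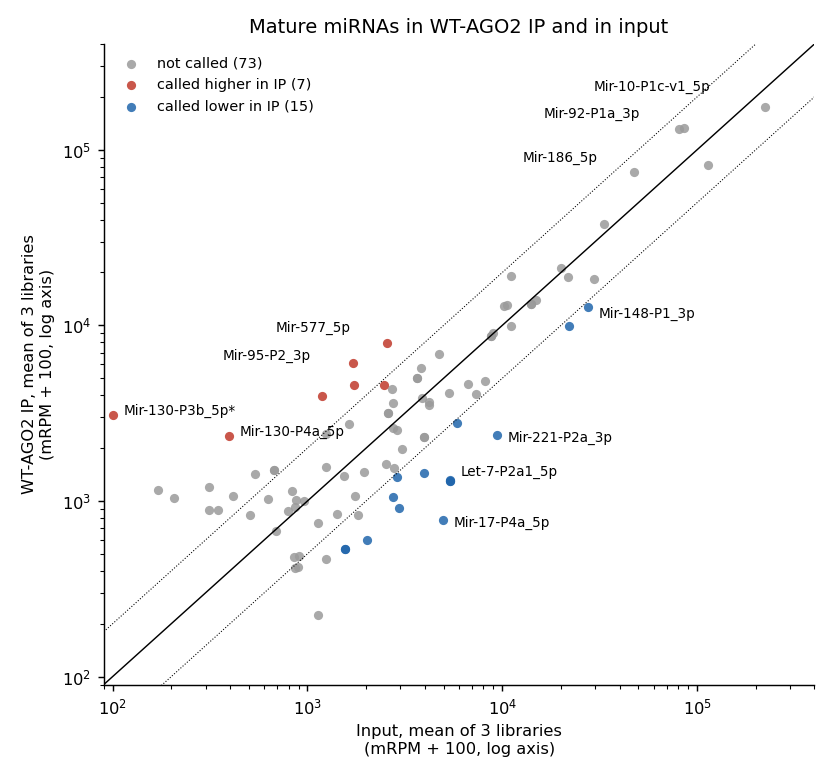
Mean share of each of the 95 tested miRNAs in input (x axis) and WT-AGO2 IP (y axis), both in mRPM plus 100 on log axes, each the mean of 3 libraries. The solid line marks equal shares and the dotted lines a difference of 1 on the log2 scale. The most abundant miRNAs at the upper right lie near the solid line. The 7 called higher (red) and most of the 15 called lower (blue) lie further down, apart from Hsa-Mir-148-P1_3p and Hsa-Mir-27-P2_3p.

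Of the 10 most abundant miRNAs in IP, 8 were also among the 10 most abundant in input, and none of the 10 was called higher. Hsa-Mir-10-P1c-v1_5p, of the Mir-10 family some of whose genes lie in the HOX clusters, ranked at the top of all 6 libraries. It took 23.1%, 22.9% and 21.3% of the mature miRNA reads in the inputs and 16.7%, 18.5% and 17.3% in IP. All its IP libraries lay below all its inputs, but the difference did not pass (log2 fold change -0.36 ± 0.19 (SE), limma adjusted p = 0.121). Its relative Hsa-Mir-10-P1b-v1_5p took 11.7%, 12.8% and 9.61% of the mature miRNA reads in the inputs and 7.34%, 9.78% and 7.44% in IP (log2 fold change -0.48 ± 0.20 (SE), limma adjusted p = 0.0550), with overlapping libraries. Summed over 5 names, the Mir-10 family took 35.4%, 36.1% and 31.9% in the inputs and 24.6%, 28.7% and 25.6% in IP, with 0 of its 4 tested members called.

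miR-92a-3p, a product of the miR-17 clusters, took a larger share in IP. Its names Hsa-Mir-92-P1a_3p and Hsa-Mir-92-P1c_3p share nearly all their reads. Hsa-Mir-92-P1a_3p took 6.99%, 9.03% and 9.69% of the mature miRNA reads in the inputs and 15.9%, 12.8% and 10.9% in IP, without overlap (log2 fold change 0.62 ± 0.20 (SE), limma adjusted p = 0.00819). Hsa-Mir-92-P1c_3p gave nearly the same (log2 fold change 0.69 ± 0.20 (SE), limma adjusted p = 0.00352). Both passed on p and stayed under the fold threshold. With names of shared reads counted once, miR-92a-3p took 7.97%, 10.4% and 11.2% of the inputs and 19.8%, 15.4% and 12.8% of IP. The difference was larger in replicate 1 than in the other replicates.

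Hsa-Mir-186_5p took 4.53%, 4.81% and 4.92% of the mature miRNA reads in the inputs and 4.52%, 6.77% and 11.0% in IP (log2 fold change 0.55 ± 0.21 (SE), limma adjusted p = 0.0351), so its share in IP did not exceed that of the input in replicate 1. Hsa-Mir-92-P1d_3p (log2 fold change 0.22 ± 0.22 (SE), limma adjusted p = 0.458), Hsa-Mir-378_3p (log2 fold change 0.08 ± 0.24 (SE), limma adjusted p = 0.824) and Hsa-Mir-191_5p (log2 fold change -0.27 ± 0.24 (SE), limma adjusted p = 0.393) did not pass, and their libraries overlapped. Hsa-Mir-22-P1b_3p took 2.81%, 2.59% and 3.46% of the mature miRNA reads in the inputs and 1.97%, 1.49% and 1.98% in IP, with all IP libraries below all inputs, and passed on p with a fold under the threshold (log2 fold change -0.70 ± 0.23 (SE), limma adjusted p = 0.0129). The 10 most abundant miRNAs of each library together held 67.8%, 69.8% and 68.6% of the inputs and 72.4%, 71.5% and 69.1% of IP, a difference of 2.27 ± 2.09 percentage points (SD over 3 pairs), with p = 0.2 in a two-sided exact permutation test that can go no lower than 0.1. With names of shared reads counted once, the difference was -0.24. The effective number of miRNAs, the exponential of the Shannon entropy of the shares, was 26.8, 24.1 and 25.9 in the inputs and 23.4, 23.9 and 26.5 in IP (two-sided exact permutation p = 0.4).

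Among the 7 miRNAs called higher, the extreme was a passenger strand of the Mir-130 family, whose guides include miR-130 and miR-301. Hsa-Mir-130-P3b_5p* had 0 reads in all 3 inputs and 66, 21 and 22 reads in IP, or 2143, 3266 and 3604 mRPM. Set against 3 reads per input library, its mean in IP was at least 4.31-fold higher (adjusted p = 3.00e-05 from limma). Hsa-Mir-130-P4a_5p, from another hairpin of the family, had 426, 454 and 0 mRPM in the inputs, or 4, 2 and 0 reads, and 2273, 2333 and 2129 in IP (log2 fold change 2.93 ± 0.67 (SE), limma adjusted p = 0.000151). The other arm of that hairpin, Hsa-Mir-130-P4a_3p, showed 1810.2, 2497 and 3642 mRPM in the inputs and 2046, 2955 and 2457 in IP, and did not pass (log2 fold change -0.05 ± 0.35 (SE), limma adjusted p = 0.939).

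Hsa-Mir-95-P2_3p rose from 1597, 2497 and 728 mRPM in the inputs to 4287, 6999.5 and 6716 in IP, a 3.87-fold difference (log2 fold change 1.95 ± 0.34 (SE), limma adjusted p = 4.56e-07). Hsa-Mir-320-P1_3p, of a family known for precursors that can be made without Drosha, rose from 958, 1589 and 728 to 4482, 3111 and 3931 mRPM, 3.42-fold (log2 fold change 1.77 ± 0.38 (SE), limma adjusted p = 5.20e-05). In both, every IP library lay above every input. Hsa-Mir-320-P1_3p lost its call without replicate 1. Hsa-Mir-577_5p rose from 1491, 2269.6 and 3642 to 4806, 7622 and 11138 mRPM, 3.11-fold (log2 fold change 1.64 ± 0.31 (SE), limma adjusted p = 5.39e-06), with log2 ratios in the 3 pairs closer to each other than in any other miRNA called higher. It was the call that remained under each of the 13 alternatives run. Hsa-Mir-423_5p rose from 1597, 1135 and 2185 to 4157, 4199.7 and 5078 mRPM, 2.70-fold (log2 fold change 1.44 ± 0.35 (SE), limma adjusted p = 0.000361). Its partner arm Hsa-Mir-423_3p had 1917, 3631 and 5827 mRPM in the inputs and 3345, 2799.8 and 5078 in IP (log2 fold change 0.07, adjusted p = 0.891 from limma). The remaining call was the passenger strand Hsa-Mir-148-P1_5p*, at 3195, 681 and 3277 mRPM in the inputs and 5261, 5599.6 and 2621 in IP (log2 fold change 1.09 ± 0.34 (SE), limma adjusted p = 0.00709). It was lower in IP in replicate 3 and its difference was largest in replicate 2, where the input had 3 reads. It is named after its values were seen, since it did not move the same way in all pairs. Without replicate 2 its log2 fold change was 0.20, and it was not called.

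Below these were miRNAs that moved up in all 3 pairs without being called. Hsa-Mir-221-P1a_3p, of the family that represses the cell cycle inhibitor CDKN1B, had 6389, 12029 and 14567 mRPM in the inputs and 13509.6, 23176 and 20475 in IP (log2 fold change 0.83 ± 0.25 (SE), limma adjusted p = 0.00547) and passed on p only. Hsa-Mir-10-P1c-v1_3p*, the passenger of the most abundant miRNA, had 6, 0 and 0 reads in the inputs and 38, 5 and 8 in IP (log2 fold change 2.6 ± 1.17 (SE), limma adjusted p = 0.0772). Hsa-Mir-671_3p (log2 fold change 1.87 ± 0.78 (SE), limma adjusted p = 0.0550), Hsa-Mir-28-P1_3p (log2 fold change 0.78 ± 0.38 (SE), limma adjusted p = 0.102) and Hsa-Mir-345_5p (log2 fold change 0.69 ± 0.33 (SE), limma adjusted p = 0.0944) had an unadjusted p below 0.05 and did not pass after adjustment.

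Among the miRNAs called lower, the largest fall was in the Mir-17 family, which promotes proliferation and is encoded in clusters with Mir-92. Hsa-Mir-17-P4a_5p fell from 3939.9, 5901 and 4734 mRPM in the inputs to 455, 933 and 655 in IP, 6.47-fold (log2 fold change -2.69 ± 0.39 (SE), limma adjusted p = 7.73e-09). All 3 pairs gave nearly the same ratio. Hsa-Mir-17-P1d_5p fell from 2769, 2951 and 2185 to 812, 1244 and 819 mRPM (log2 fold change -1.38 ± 0.42 (SE), limma adjusted p = 0.00547). Hsa-Mir-17-P1a_5p fell from 2449, 6582 and 2549 to 1039, 1867 and 1147 mRPM (log2 fold change -1.34 ± 0.37 (SE), limma adjusted p = 0.00236). In each, no IP library reached an input library. Without replicate 1, Hsa-Mir-17-P4a_5p alone of the family was called. The other tested members were Hsa-Mir-17-P4d_5p (log2 fold change -0.74 ± 0.29 (SE), limma adjusted p = 0.0386), and Hsa-Mir-17-P2a_5p, with 7, 4 and 4 reads in the inputs and 2, 2 and 0 in IP (log2 fold change -2.54 ± 1.24 (SE), limma adjusted p = 0.102). So 3 of 5 tested members were called lower, against 15.8% of all tested, and 0 higher, with a median log2 fold change of -1.38 against -0.06 over all 95. The 8 names together took 1.77%, 2.5% and 2.11% of the inputs and 0.841%, 1.06% and 0.737% of IP.

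let-7a-5p, a member of the family that represses RAS, MYC and LIN28 and marks differentiated cells, was listed under 3 names that share their reads. Hsa-Let-7-P2a1_5p and Hsa-Let-7-P1d_5p were identical, at 7134, 4766 and 4006 mRPM in the inputs and 1072, 2022 and 491 in IP, 4.62-fold lower (log2 fold change -2.21 ± 0.36 (SE), limma adjusted p = 1.07e-07), and Hsa-Let-7-P2a2_5p differed by 2 reads. The IP libraries held 33, 13 and 3 reads. The IP of the empty vector held 4 reads over 3 libraries, and their mean RPM was 65.6% of that in IP of WT-AGO2. Without replicate 1 its limma adjusted p was 0.051 and the call was lost. Hsa-Mir-221-P2a_3p fell from 10329, 7717 and 9832 to 2111, 3111 and 1638 mRPM, 4.03-fold (log2 fold change -2.01 ± 0.31 (SE), limma adjusted p = 2.24e-08), and kept its call whichever replicate was left out.

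Hsa-Mir-15-P1a_5p, of the family that represses BCL2 and cyclins, had 23, 5 and 6 reads in the inputs and 27, 4 and 0 in IP, or 2449, 1135 and 2185 against 877, 622 and 0 mRPM (log2 fold change -2.22 ± 0.64 (SE), limma adjusted p = 0.00352). Its log2 ratio was -4.51 in replicate 3 and -1.38 and -0.77 in the others, and without replicate 1 or replicate 3 it was not called. miR-218-5p, enriched in motor neurons in the body and named Hsa-Mir-218-P2_5p and Hsa-Mir-218-P4_5p with identical values, had 1917, 1362 and 1092 mRPM in the inputs and 649, 156 and 491 in IP (log2 fold change -1.65 ± 0.66 (SE), limma adjusted p = 0.0440). It lost its call whichever replicate was left out. Hsa-Mir-96-P2_5p, of a family known from sensory organs, fell from 3195, 3858 and 1457 to 844, 1089 and 491 mRPM (log2 fold change -1.64 ± 0.43 (SE), limma adjusted p = 0.00138), and lost its call without replicate 1. Hsa-Mir-1307_5p had 2769, 1589 and 4006 mRPM in the inputs and 1396, 467 and 1966 in IP (log2 fold change -1.17 ± 0.40 (SE), limma adjusted p = 0.0161). Its libraries overlapped, the mean RPM in the empty vector IP was 49.0% of that with WT-AGO2, on 2 reads, and it too lost its call whichever replicate was left out.

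More abundant miRNAs were also lower. Hsa-Mir-148-P1_3p, a guide of the family that represses DNA methyltransferase 1, fell from 2.89%, 2.81% and 2.51% of the mature miRNA reads in the inputs to 1.18%, 1.48% and 1.11% in IP, 2.18-fold (log2 fold change -1.13 ± 0.24 (SE), limma adjusted p = 5.21e-05). Hsa-Mir-27-P2_3p, of the family known from adipocyte differentiation, fell from 2.57%, 1.77% and 2.22% to 0.971%, 0.762% and 1.23%, 2.22-fold (log2 fold change -1.15 ± 0.25 (SE), limma adjusted p = 6.47e-05). These are the called miRNAs with the most reads, and IP and input did not overlap in either. With median-of-ratios scaling their log2 fold changes were -0.90 and -0.92, just under the fold threshold. Hsa-Mir-340_5p was the smallest of the lower calls and is named after its values were seen, at 4898, 4312 and 8012 mRPM in the inputs and 2013, 2799.8 and 3276 in IP (log2 fold change -1.04 ± 0.32 (SE), limma adjusted p = 0.00611). It was called in 4 of the 13 alternatives, and lost its call without replicate 1, without replicate 3, without the replicate block and with median-of-ratios scaling (log2 fold change -0.81).

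**Figure D2:**
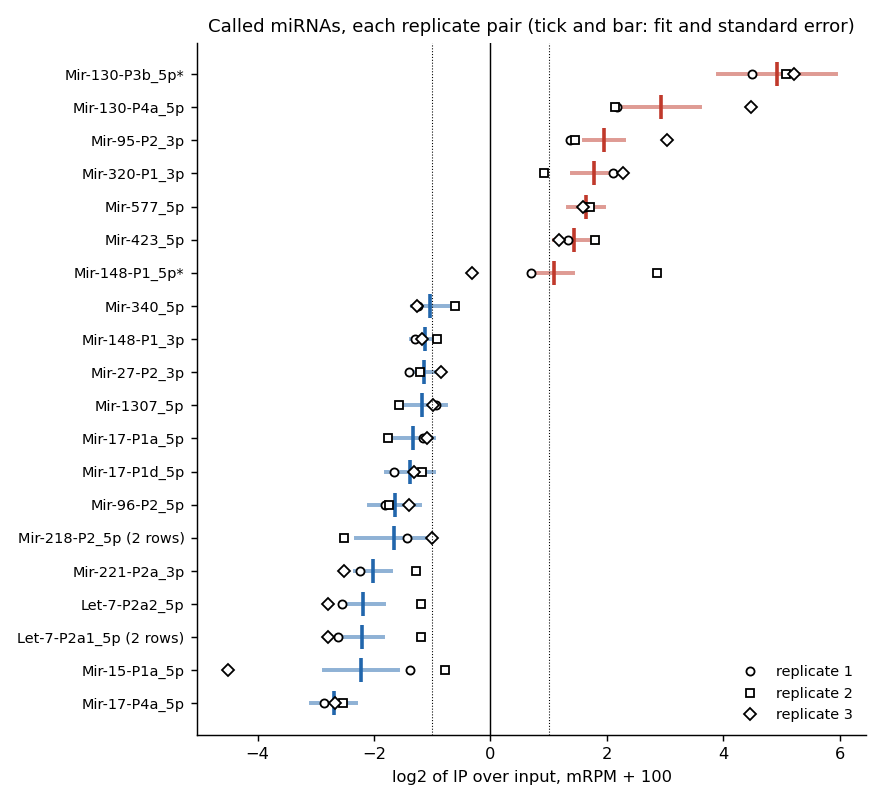
log2 of IP over input (x axis, mRPM plus 100) for the 20 distinct called miRNAs (y axis). Open symbols are the 3 replicate pairs, ticks the fitted value and bars its standard error, and dotted lines mark -1 and 1. Hsa-Mir-577_5p and Hsa-Mir-17-P4a_5p have pairs close together, whereas replicate 3 lies apart for Hsa-Mir-15-P1a_5p and replicate 2 for Hsa-Mir-148-P1_5p*.

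The calls that remained without replicate 1 were Hsa-Mir-130-P3b_5p*, Hsa-Mir-577_5p and Hsa-Mir-95-P2_3p among the higher ones, and Hsa-Mir-17-P4a_5p, Hsa-Mir-221-P2a_3p, Hsa-Mir-27-P2_3p and Hsa-Mir-148-P1_3p among the lower ones. The IP of the empty vector, with 174 to 202 mature miRNA reads per library, gives the background of the beads. Of the called miRNAs, 5 of the 7 higher and 8 of the 15 lower had no read there, as had 101 of all 135 miRNAs. In these libraries 1 read was worth 4950.5 to 5747 mRPM, so absence there is no measure of a low background. Among called miRNAs with reads, the empty vector IP stood at 6.75% and 9.38% of the WT-AGO2 RPM for Hsa-Mir-95-P2_3p and Hsa-Mir-130-P4a_5p. For Hsa-Mir-148-P1_3p, Hsa-Mir-27-P2_3p and Hsa-Mir-221-P2a_3p it stood at 5.43%, 6.21% and 13.5%. The part of this background in the shares was not tested.

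In the Mir-130 family, Hsa-Mir-130-P3b_5p* and Hsa-Mir-130-P4a_5p were called higher. Their input means were 0 and 293 mRPM, so both reached the mean of 500 mRPM through IP, and no family count is given. With these names included, the family took 0.266%, 0.363% and 0.473% of the inputs and 0.666%, 0.918% and 1.05% of IP. Of the IP shares, Hsa-Mir-130-P3b_5p* made up 0.214%, 0.327% and 0.360%, and Hsa-Mir-130-P4a_5p 0.227%, 0.233% and 0.213%. The sum therefore rests on names that entered through IP and is no support for a rise of the family. In the Let-7 family 3 of 8 tested names were called lower, against 15.8% of all tested, and 0 higher, but the 3 are let-7a alone with shared reads and so 1 miRNA. The other 5 tested names did not pass, with log2 fold changes from -0.77 for Hsa-Let-7-P2c3_5p to 2.63 for Hsa-Let-7-P2c2_5p. With median-of-ratios scaling, the calls in Mir-17, Mir-130 and Let-7 were kept. The Mir-15 family had 1 of 4 tested names called (median -0.42), and its summed share was 3.58%, 2.79% and 2.84% in the inputs and 2.57%, 2.36% and 3.39% in IP. The identical Hsa-Mir-15-P2a_5p and Hsa-Mir-15-P2b_5p both count in this sum. In the Mir-30 family, 0 of 8 tested names were called, with 3 above and 5 below 0 (median -0.10). Mir-26 and Mir-103 had 0 of 3 tested names called each, with medians of -0.02 and 0.32, and Mir-101 had 0 of 2 (median -0.77). The Mir-92 family, with 0 of 4 tested names called, took 19.9%, 22.2% and 22.2% of the inputs and 37.7%, 30.6% and 25.98% of IP. These sums count the reads shared by Hsa-Mir-92-P1a_3p and Hsa-Mir-92-P1c_3p for both names, and so overstate the family. In Mir-19 and Mir-362 no name was abundant enough to be tested, and in Mir-181 only a passenger strand was. By arm, 3p guides had a median log2 fold change of -0.01 over 30 names and 5p guides of -0.19 over 54, and 3p guides held 37.2%, 38.6% and 40.5% of the inputs and 52.5%, 44.3% and 41.0% of IP. The shares by arm also count shared reads for each name, those of miR-92a-3p among them.

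Within some families, closely related miRNAs had different IP over input. let-7f-5p, named Hsa-Let-7-P2b1_5p and Hsa-Let-7-P2a3_5p, had 5431, 2724 and 2549 mRPM in the inputs and 6105, 4977 and 3604 in IP, higher in all 3 pairs but not past the test (log2 fold change 0.50 ± 0.31 (SE), limma adjusted p = 0.205). Reads of let-7f over those of let-7a stood at 0.761, 0.571 and 0.636 in the inputs and 5.70, 2.46 and 7.33 in IP. On the log2 scale this was -0.62 ± 0.21 (SD, n = 3) in input and 2.23 ± 0.82 (SD, n = 3) in IP, so that let-7a exceeded let-7f in the inputs and let-7f exceeded let-7a in IP, in all 3 pairs (two-sided exact permutation p = 0.1, the lowest that 3 against 3 allows, and 0.2 after Benjamini-Hochberg adjustment over the 4 measures tested in this way). This ratio was chosen after the values were seen. Among the tested miRNAs with a matched sequence, 3 seeds were held by more than 1 sequence. The log2 fold changes of let-7f and let-7a lay 2.71 apart, those of miR-103a-3p and miR-107 0.995 and those of miR-26a-5p and miR-26b-5p 0.66. In the empty vector IP, let-7f stood at 20.5% of its WT-AGO2 RPM, on 5 reads.

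In the Mir-221 family, which acts on CDKN1B, Hsa-Mir-221-P2a_3p was lower and Hsa-Mir-221-P1a_3p higher in each pair, with fold changes of -2.01 and 0.83 on the log2 scale. In the inputs Hsa-Mir-221-P2a_3p was the larger of both in replicate 1 only, while in IP Hsa-Mir-221-P1a_3p exceeded it in all 3 libraries. In Mir-148-P1, the guide was called lower and its passenger higher. In the Mir-26 family, Hsa-Mir-26-P1_5p was at -0.02 and Hsa-Mir-26-P2_5p at -0.68, and neither passed (adjusted p = 0.968 and 0.157 from limma).

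**Figure D3:**
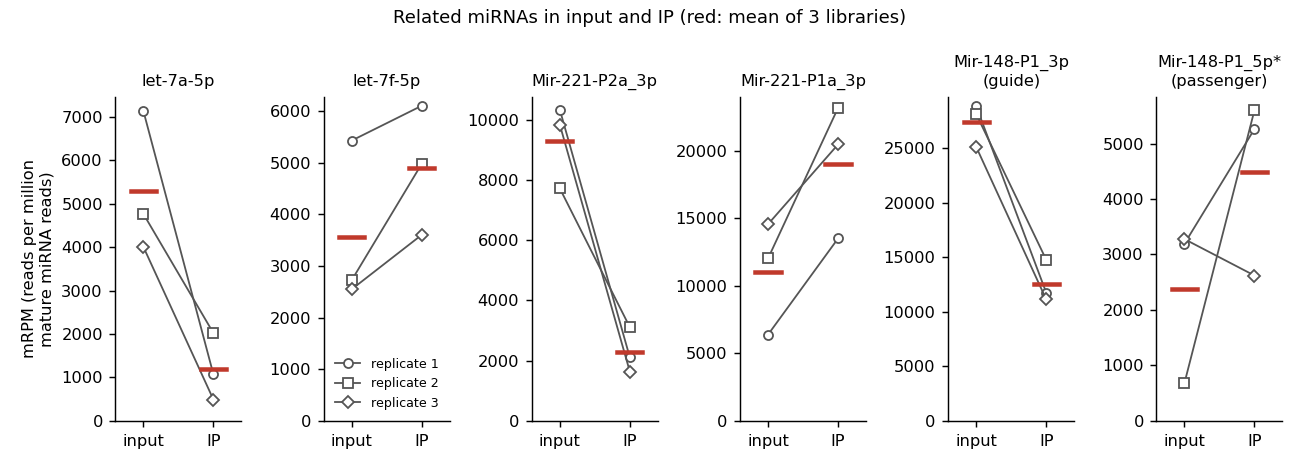
Share in mRPM (y axes, each from 0 with its own scale) in input and IP of WT-AGO2 for 3 pairs of related miRNAs. Lines join input and IP of 1 replicate and red bars are means of 3 libraries. let-7a-5p, Hsa-Mir-221-P2a_3p and Hsa-Mir-148-P1_3p fell in all 3 pairs, and let-7f-5p and Hsa-Mir-221-P1a_3p were higher in all 3, whereas Hsa-Mir-148-P1_5p* fell in replicate 3.

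Passenger strands had a larger share in IP in all 3 pairs. The 25 listed passenger strands together took 1.61% (95% Wilson interval 1.37% to 1.88%), 0.749% (0.534% to 1.05%) and 1.93% (1.48% to 2.52%) of the mature miRNA reads in the inputs, and 2.6% (2.43% to 2.78%), 2.26% (1.92% to 2.65%) and 2.98% (2.58% to 3.44%) in IP. The means were 1.43% ± 0.611 and 2.61% ± 0.363 (SD, n = 3), a 1.83-fold difference without overlap (two-sided exact permutation p = 0.1, and 0.25 for the exact test over the signs of the 3 pairs, each the lowest possible). These sums include strands found in IP alone. Hsa-Mir-130-P3b_5p*, 1 of them, had 0 reads in the inputs and took 0.214%, 0.327% and 0.360% of IP. The fold and the lack of overlap depend in part on such strands, and the sums without them were not tested. Passenger strands were listed at 14, 7 and 8 in the inputs and 20, 17 and 19 in IP, with more miRNA reads in IP than in the input of the same replicate. Across replicates, the input of replicate 1 held 9391 miRNA reads, against 6429 and 6105 in IP of replicates 2 and 3. PCR copies cannot be told from separate molecules here, so the intervals hold counting error alone. Of the 25 passenger strands, 11 reached the mean of 500 mRPM, some of them through IP alone, such as Hsa-Mir-130-P3b_5p*, so no count or median over the 11 is given. Single reads were mostly listed as 0 and each input held fewer miRNA reads than the IP of its replicate, and the part of this in the difference was not tested.

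Within hairpins, passenger over guide could be tested for 16, and 5 passed at an adjusted p below 0.05 (31.2% of those tested), all of them higher in IP. Of these 5, Hsa-Mir-148-P1 alone had passenger reads in more than 1 input. The count and the common direction therefore depend on hairpins that entered through IP, and are no support for a rise of passenger strands. Hsa-Mir-148-P1 had 30, 3 and 9 passenger reads in the inputs and 162, 36 and 16 in IP, so that the passenger rose from 9.97%, 2.36% and 11.5% to 30.9%, 27.5% and 19.0% of the hairpin (log2 difference 2.21 ± 0.87 (SE), limma adjusted p = 0.04998). This is the hairpin among the 5 with the most passenger reads, and its IP values all lay above its inputs. Hsa-Mir-128-P2, whose guide shares its reads with Mir-128-P1, had 0 passenger reads in the inputs and 24, 3 and 5 in IP, while its guide had 22, 25 and 12 in the inputs and 105, 20 and 25 in IP (log2 difference 3.08 ± 0.71 (SE), limma adjusted p = 0.00109). Hsa-Mir-340 had 0 passenger reads in the inputs and 5, 3 and 2 in IP (log2 difference 3.03 ± 0.70 (SE), limma adjusted p = 0.00109), Hsa-Mir-17-P4d 2, 0 and 0 against 7, 3 and 3 (log2 difference 2.45 ± 0.73 (SE), limma adjusted p = 0.0107) and Hsa-Mir-15-P2b 2, 0 and 0 against 11, 2 and 10 (log2 difference 2.34 ± 0.76 (SE), limma adjusted p = 0.0168). With inputs at 0, the fitted size is set by the pseudocount. The test asked for both strands above 0 in at least 2 of 6 libraries. Hsa-Mir-128-P2, Hsa-Mir-340, Hsa-Mir-17-P4d and Hsa-Mir-15-P2b met this only through their IP reads. Without replicate 2 and without replicate 3, 0 hairpins passed, and without replicate 1, 6. Passenger over guide was also high in IP, without passing, for Hsa-Mir-181-P1b, with 3, 0 and 0 passenger and 16, 3 and 0 guide reads in the inputs and 28, 7 and 2 against 13, 0 and 1 in IP (log2 difference 3.43 ± 2.12 (SE), limma adjusted p = 0.184). Mir-181 is known from lymphocyte development. Its relative Hsa-Mir-181-P1a, whose guide has the same reads, gave 2, 0 and 2 passenger reads in the inputs and 35, 6 and 5 in IP. Its guide had 16, 3 and 0 reads in the inputs and 13, 0 and 1 in IP, so that the strand named passenger was the larger in all IP libraries and also in the input of replicate 3, and it did not pass (log2 difference 2.95 ± 2.76 (SE), limma adjusted p = 0.427). Hsa-Mir-1307, whose 5p strand was called lower, had 23.5%, 0% and 15.4% passenger in the inputs and 56.6%, 57.1% and 14.3% in IP, where replicate 3 did not differ in that direction and replicate 1 gave most reads (log2 difference 2.14 ± 1.17 (SE), limma adjusted p = 0.152). Hsa-Mir-30-P1a went the other way, at 11, 2 and 5 passenger reads in the inputs and 24, 0 and 2 in IP (log2 difference -1.72 ± 0.72 (SE), limma adjusted p = 0.0641), and did not pass. Hsa-Mir-221-P1a, with the most passenger reads of all, stood at 30.5% passenger in pooled input and 28.1% in pooled IP (log2 difference -0.33 ± 1.21 (SE), limma adjusted p = 0.897).

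For the 5 hairpins listed with 2 guide arms and no passenger, 1 passed in 5p over 3p (20%). Hsa-Mir-17-P1d had 26, 13 and 6 reads of its 5p and 8, 0 and 0 of its 3p arm in the inputs, and 25, 8 and 5 against 37, 0 and 2 in IP (log2 difference -2.23 ± 0.62 (SE), limma adjusted p = 0.0241). Most 3p reads come from replicate 1, replicate 2 held none, and the call was lost whichever replicate was left out. Hsa-Mir-130-P4a (log2 difference 2.98 ± 1.16 (SE), limma adjusted p = 0.0704) and Hsa-Mir-423 (log2 difference 1.36 ± 0.97 (SE), limma adjusted p = 0.314) did not pass.

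**Figure D4:**
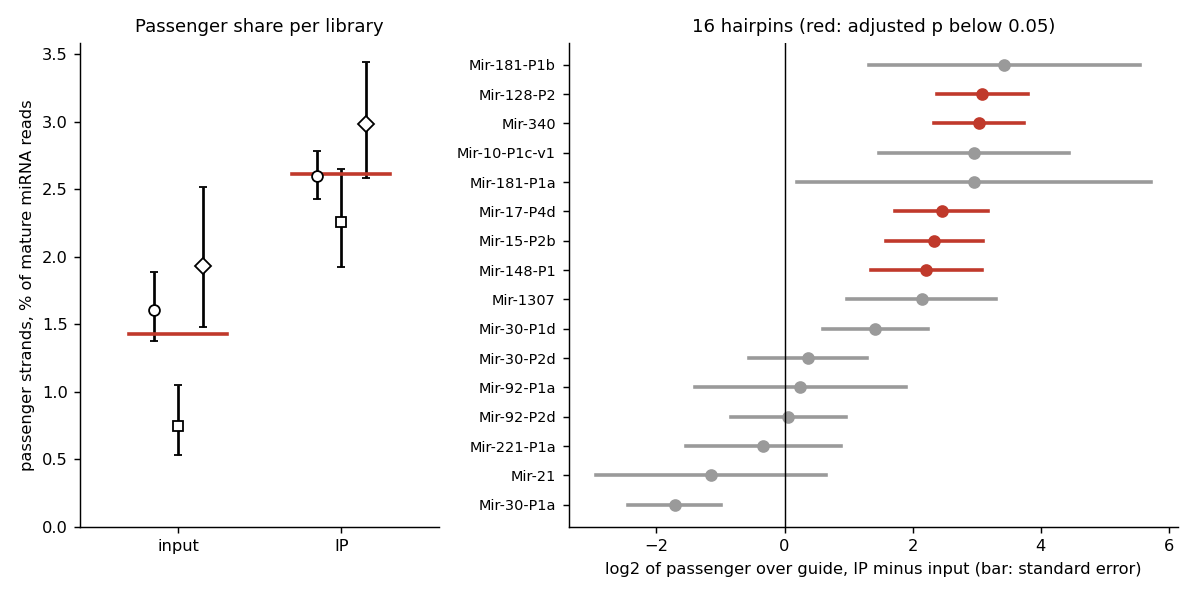
Left, passenger strands in percent of mature miRNA reads for each input and IP library (replicates 1 to 3 from left to right in each group, bars are 95% Wilson intervals, red lines means of 3). Right, IP minus input of log2 passenger over guide for 16 hairpins (points, with standard errors as bars). All 3 IP libraries lie above the inputs on the left, and the 5 hairpins with an adjusted p below 0.05 (red) lie above 0 on the right.

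The variants, each with its own IP and input, give the same measure in libraries that the WT comparison did not use. Of the 22 miRNAs called with WT-AGO2, IP over input had the same direction in 21 with F182del, 21 with N359H, 21 with G604R and 18 with D619N, and in all 4 for 16 of them. These are counts of names. let-7a-5p and miR-218-5p each fill more than 1 name with shared reads and kept their direction in all 4, which raises the counts. Over all 95 tested miRNAs, the direction was the same in 74, 77, 73 and 64, and in all 4 for 39. The log2 values correlated with those of WT-AGO2 across the 95 miRNAs with Pearson's r of 0.69, 0.74, 0.68 and 0.59, as a description. let-7a-5p (Hsa-Let-7-P2a1_5p), at -2.21 with WT-AGO2, stood at -1.83, -2.09, -2.47 and -1.78 in the order given, and Hsa-Mir-17-P4a_5p, at -2.69, at -2.66, -3.61, -1.56 and -3.03. Hsa-Mir-423_5p was at 1.44 with WT-AGO2 and at 3.24, 2.86, 3.94 and 3.37 with the variants. The variant values had SDs over 3 pairs of 1.36, 2.01, 3.15 and 2.45. Against WT-AGO2 none of them passed (limma adjusted p = 0.994, 0.871, 0.511 and 0.536). Hsa-Mir-130-P4a_5p did not keep its direction, at 2.93 with WT-AGO2 and -1.03, 0.40, 4.57 and -0.71 with the variants. The inputs of replicate 1 were thin, with 446 mature miRNA reads for G604R and 817 for D619N.

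Differences of IP over input between a variant and WT-AGO2 were tested in 1 fit over all AGO2 groups. Of 93 miRNAs, 0 passed for F182del, N359H and G604R, where 7, 3 and 5 had an unadjusted p below 0.05, and for D619N 3 passed (3.23%) and 19 had an unadjusted p below 0.05. The 3 were Hsa-Mir-130-P3b_5p*, Hsa-Mir-221-P1a_3p and Hsa-Mir-769_5p, each with a lower IP over input than with WT-AGO2. Without replicate 2 of each group, 0 passed. The comparisons share the WT libraries.

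**Figure D5:**
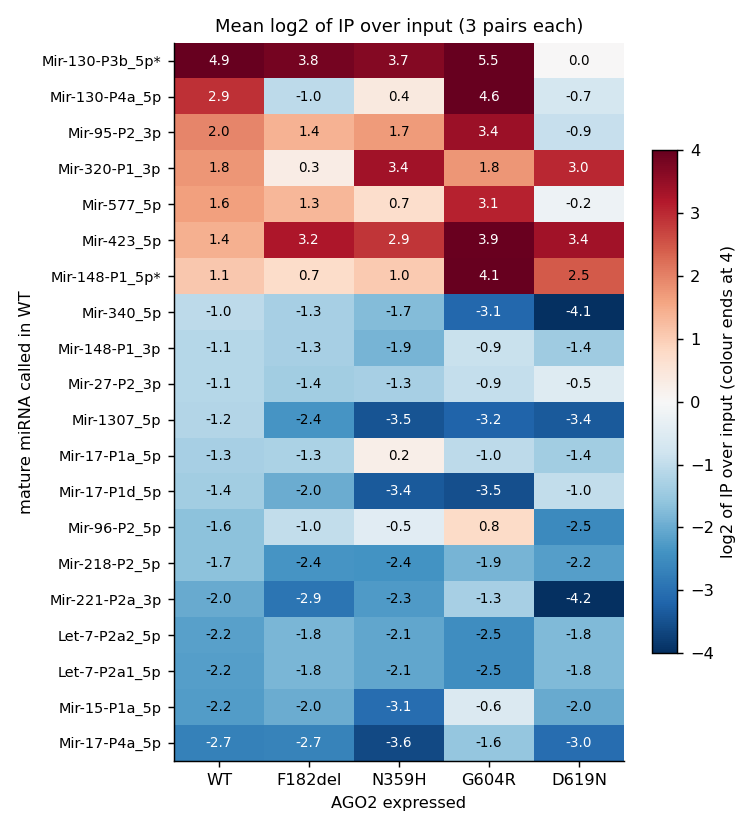
Mean log2 of IP over input (colour and printed value, mRPM plus 100, 3 pairs each) for the 20 distinct miRNAs called with WT-AGO2 (rows), in WT and the 4 variants (columns). The lower rows are blue nearly throughout, whereas D619N is at or below 0 for 4 of the 7 miRNAs that were called higher with WT-AGO2.

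Further miRNAs that the study names in its text were not called for WT-AGO2 IP against input. The study names them for differences between variants and WT-AGO2 in IP, which is another comparison. Hsa-Mir-1910_5p* had 0 reads in the inputs and 32, 3 and 2 in IP, too few in mean for the test and for a bound against 3 reads. Hsa-Mir-375_3p, known from pancreatic islets, had 4, 2 and 0 reads in the inputs and 41, 0 and 3 in IP and was not tested. Hsa-Mir-769_5p (log2 fold change 0.68 ± 0.31 (SE), limma adjusted p = 0.0799), Hsa-Mir-589_5p (log2 fold change -0.66 ± 0.44 (SE), limma adjusted p = 0.222) and Hsa-Mir-361-v1_5p (log2 fold change 0.06 ± 0.93 (SE), limma adjusted p = 0.972) overlapped between IP and input. The strand Hsa-Mir-361-v1_3p* had 0 reads in all 6 libraries. The other miRNAs found in IP alone were the passenger strands Hsa-Mir-128-P2_5p*, Hsa-Mir-30-P2d_3p* and Hsa-Mir-340_3p* and the guides Hsa-Mir-10-P3b_5p and Hsa-Mir-450-P3_5p, of which Hsa-Mir-128-P2_5p* had the most, with 24, 3 and 5 reads.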

How the data were processed

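Small RNA of IP and input was sequenced as single-end reads. The authors filtered and annotated them in the sRNAbench web application against MirGeneDB, and deposited RPM of all reads for 135 mature miRNAs. The submitters' processing notes name GRCh38. The deposited label also carries terms for a minimum and an adjustment of reads that are not explained. Reads behind each RPM value were recovered within 0.02 of a read and used for depth only, and no count model was fitted.

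The RPM of each library were rescaled to its mature miRNA reads (mRPM). IP and input of WT-AGO2 were compared on log2(value + 100) for miRNAs with a mean of at least 500 mRPM over 6 libraries, with limma 3.58.1 in R 4.3.3 (lmFit, eBayes with trend), Benjamini-Hochberg adjustment and the replicate number as a block. The study's methods describe the input as a portion of the lysate, and it was assumed, without a statement in the labels, that equal numbers mark 1 lysate. Deviations of IP and input from their group means correlated at 0.384, 0.123 and -0.009 for replicates 1 to 3. IP of replicate 3 and input of replicate 2, which are no pair, correlated at 0.189. Pairing was thus visible in replicate 1 alone. Calls needed an adjusted p under 0.05 and a log2 fold change beyond 1 in either direction, and for strand ratios the former alone. Shares of libraries were compared by exact permutation tests (Python 3.11.15, scipy 1.17.1). Fold changes are on the log2(value + 100) scale and understate those of low miRNAs with reads in every library. Where a library was at 0, the size depends on the pseudocount. For Hsa-Mir-130-P3b_5p* the log2 fold change was 8.20 with 10 mRPM, 4.92 with 100 and 2.78 with 500. The fit was also run on simulated counts, with a fixed spread between libraries, no replicate effect and no loss of single reads. That setting is simpler than these libraries, so it is no measure of false calls here. The precision is limited by 2746 to 30793 mature miRNA reads per library.

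Named are the 12 called miRNAs with the largest change in each direction that moved the same way in all pairs (filled with those of unadjusted p below 0.05), the 10 most abundant in IP and in input, hairpins called for strand or arm, and those named in the study's text. The members, lists and rules were chosen with earlier results of these data known. Alternatives were other pseudocounts (10 and 500), filters (none and 2000) and scalings, fits without the block, the trend or the variance moderation, shared names counted once, and each replicate left out. Loci are from RefSeq on GRCh38.p14, with overlapping genes from a GENCODE annotation of GRCh38.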

Additional observations from a re-analysis of the deposited data

Results flagged for a closer look

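IP over input differed between D619N and WT-AGO2 for 3 of 93 miRNAs by the test of the difference itself, each lower with D619N. D619N IP libraries held 2011 to 6895 mature miRNA reads against 6105 to 30793 with WT-AGO2. For Hsa-Mir-130-P3b_5p* the fitted difference in log2 was -4.92 ± 1.22 (SE, limma adjusted p = 0.0257). It had 0 reads in all 6 libraries of D619N and in the WT inputs, and 66, 21 and 22 reads in IP of WT-AGO2, so the fitted difference depends on the pseudocount and is no bound, and with 1 replicate of each group left out the adjusted p was 0.0891 to 0.237. For Hsa-Mir-221-P1a_3p the difference was -2.18 ± 0.40 (SE, limma adjusted p = 0.00235). Its log2 ratios were -0.74, -1.32 and -1.98 with D619N and 1.07, 0.94 and 0.49 with WT-AGO2, on 25, 13 and 7 reads in IP of D619N, and its adjusted p was 0.0546 without replicate 2 and at most 0.0467 in the other alternatives. For Hsa-Mir-769_5p the difference was -3.86 ± 0.98 (SE, limma adjusted p = 0.0257), with 9, 2 and 0 reads in IP and 6, 8 and 9 in the inputs of D619N. Its adjusted p was 0.170 with a pseudocount of 10 mRPM, 0.224 without replicate 2 and 0.0677 without replicate 3.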

How the results depend on the processing

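Of the 22 calls, 17 remained with a pseudocount of 10 mRPM, 15 with a filter of 2000 mRPM, 14 with median-of-ratios scaling and 16 without the replicate block. The number of calls was 10 with no filter on low values (4 of them lower), 12 without the trend (7 lower) and 1 without variance moderation (1 higher, 0 lower, with 24 at an unadjusted p below 0.05), an alternative chosen after seeing the data. With median-of-ratios scaling, 8 were lower. Leaving out 1 replicate gave 7 to 20 calls, 3 to 10 higher and 4 to 13 lower, the lowest without replicate 1. No called miRNA changed direction under any of these alternatives. The filters and the fits without block, trend or variance moderation leave the fold change as it was, so a direction could not change there. Without the replicate block, 16 miRNAs, 5 hairpins for passenger over guide and 0 for 5p over 3p passed. For the shares, the exact sign-flip test over the replicate pairs gave p = 0.25, 0.25 and 0.75 for passenger strands, the 10 most abundant and the effective number. With names of shared reads counted once, also chosen after seeing the data, the difference between IP and input was 1.51 percentage points for passenger strands and -0.24 for the 10 most abundant.

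Passenger over guide passed in 2 hairpins with a pseudocount of 10 mRPM, and in 0 to 6 with 1 replicate left out. For 5p over 3p, 0 passed with that pseudocount and with any replicate left out. A fit of hairpins with both strands above 0 in all 6 libraries could not be run, as fewer than 3 remained. For D619N against WT-AGO2, 7 miRNAs passed with a pseudocount of 500 mRPM and 0 to 5 with 1 replicate left out, of which leaving out replicate 2 or 3 was chosen after seeing the data. The inputs limit the depth, since 3 reads in them were worth a mean of 698 mRPM, above the filter.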
